A study of Mus musculus with 90 samples.

Results

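The data cover 10 genes whose proteins recruit the decay machinery to maternal mRNA or take it apart from the 5′ end, namely Btg4, Zfp36l1, Zfp36l2, Ythdf2, Pabpn1l, Dcp1a, Dcp2, Zcchc6, Zcchc11 and Xrn1, picked by symbol from the 24422 genes of the count table. All 10 were in the table, and all 10 passed the filter on low counts that left 16511 genes for testing. The libraries were made from single MII oocytes, single 2-cell (2c) embryos and single 8-cell (8c) embryos of CD-1 mice by sequencing the 5′ ends of polyadenylated transcripts. WT oocytes and embryos came from WT females, and the knockout arm came from sexually mature Plag1 KO females, which lack the gene for the zinc finger transcription factor PLAG1. Both kinds of female were superovulated. The matPlag1KO embryos were sired by WT studs, as were the WT embryos, and therefore carry an intact paternal allele. MII oocytes were picked 21 to 23 h after hCG without culture, 2c embryos 45 to 47 h post fertilization and 8c embryos 71 to 73 h post fertilization after culture. The kept libraries numbered 16 WT and 14 KO oocytes, 11 WT and 11 matPlag1KO 2c embryos, and 15 WT and 11 matPlag1KO 8c embryos. The females that gave each oocyte or embryo are not named in the labels.

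A fully grown oocyte is transcriptionally silent and lives on stored mRNA, most of which is destroyed between meiotic maturation and the first cleavages. Adaptor proteins bring the CCR4-NOT deadenylase to the poly(A) tail, terminal uridylyl transferases mark shortened tails with uridine, the DCP1A-DCP2 pair removes the 5′ cap, and XRN1 digests the uncapped RNA from the 5′ end. Several of these factors are themselves encoded by maternal mRNA, so that their own transcripts belong to the stored pool. Because the primer anneals to poly(A), a transcript that loses its tail and a transcript that is destroyed cannot be told apart in these counts. Each library is a whole oocyte or embryo whose cell number is known only from its stage label, so amounts per cell were not measured.

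The genes lie apart in the genome (mm9, the build of the count table). Btg4 is at chr9:50924106-50927805 on the plus strand, Pabpn1l at chr8:125143371-125146635 on the minus strand and Dcp1a at chr14:31292751-31340242 on the plus strand. Ythdf2 is at chr4:131740831-131768171 (minus), Xrn1 at chr9:95855179-95958225 (plus), Zfp36l1 at chr12:81208747-81214000 (minus) and Zfp36l2 at chr17:84583269-84587287 (minus). Zcchc6 (Tut7) is at chr13:59873240-59924508 (minus) and Zcchc11 (Tut4) at chr4:108132031-108232020 (plus). 

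RefSeq promoter windows, from 250 bases before to 50 bases after the start, were held for 8 of the 10 genes, and each matched mm9 once. Shown here are those of the 3 genes whose 2c libraries all lay below all oocytes of their genotype per spike-in count, in WT and in the knockout arm alike (Btg4, Pabpn1l and Dcp1a), followed by that of Ythdf2, which moved the other way in WT. Such separation in both genotypes was found for 3.71% of the 16511 tested genes (4.97% in WT and 10.3% in the knockout arm). The windows are written 5′ to 3′ in the direction of the gene, with the letters of motif matches in capitals, and span chr9:50923856-50924155 (plus), chr8:125146586-125146885 (minus), chr14:31292501-31292800 (plus) and chr4:131768122-131768421 (minus) in mm9.
Btg4: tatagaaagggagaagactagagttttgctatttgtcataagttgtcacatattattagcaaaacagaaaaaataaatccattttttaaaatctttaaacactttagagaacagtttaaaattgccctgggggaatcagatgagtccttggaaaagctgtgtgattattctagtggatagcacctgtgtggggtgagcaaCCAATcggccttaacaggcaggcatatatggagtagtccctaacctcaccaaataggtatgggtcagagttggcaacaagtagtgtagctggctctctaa
Pabpn1l: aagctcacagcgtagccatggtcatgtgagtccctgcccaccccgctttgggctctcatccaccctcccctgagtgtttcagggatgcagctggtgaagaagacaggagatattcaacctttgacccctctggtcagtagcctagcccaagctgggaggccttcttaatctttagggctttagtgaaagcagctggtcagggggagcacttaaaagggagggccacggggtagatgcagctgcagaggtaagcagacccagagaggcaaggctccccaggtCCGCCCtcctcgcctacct
Dcp1a: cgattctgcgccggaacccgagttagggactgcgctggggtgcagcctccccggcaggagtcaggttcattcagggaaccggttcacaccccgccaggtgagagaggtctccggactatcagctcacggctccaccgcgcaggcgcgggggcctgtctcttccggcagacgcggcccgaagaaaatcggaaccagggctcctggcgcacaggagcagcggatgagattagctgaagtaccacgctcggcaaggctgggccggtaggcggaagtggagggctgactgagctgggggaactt
Ythdf2: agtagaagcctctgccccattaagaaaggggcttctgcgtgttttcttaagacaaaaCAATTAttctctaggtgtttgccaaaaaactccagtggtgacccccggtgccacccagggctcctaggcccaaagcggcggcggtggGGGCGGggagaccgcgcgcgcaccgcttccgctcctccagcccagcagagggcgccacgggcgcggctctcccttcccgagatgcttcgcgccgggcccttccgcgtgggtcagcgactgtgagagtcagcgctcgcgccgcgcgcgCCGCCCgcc

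The 4 windows differ in base composition. Those of Btg4 and Pabpn1l held 1 and 5 CpG dinucleotides, under the median of 7 over all RefSeq promoters, and those of Dcp1a and Ythdf2 held 25 and 32. The letters searched on both strands were CCAAT (the CCAAT box), GGGCGG (the GC box), TATAAA (the TATA box), TAATTG (an element bound by the oocyte homeobox protein NOBOX) and the PLAG1 consensus. These matched 37.4%, 35.7%, 13.6%, 8.0% and 19.2% of the 32851 RefSeq promoter windows. Btg4 held 1 CCAAT, Pabpn1l 1 GGGCGG, Ythdf2 2 GGGCGG and 1 TAATTG, and Dcp1a none of the 5 motifs. No window shown matched the PLAG1 consensus. The longer de novo PLAG1 motif of the paper, and the wider promoter stretch scanned there, were not searched here. Among the other members with a window, both overlapping Zcchc6 windows matched it.

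Library depth and quality bear on all these values. Gene counts per kept library ran from 92475 to 2502421, and spike-in (ERCC) counts from 6645 to 15428. Plag1 itself was counted in 16 of 16 WT oocytes and in 3 of 14 KO oocytes (4 counts in all), a difference of -5.64 ± 0.65 (log2 fold change ± SE) with an adjusted p of 1.48e-10 in edgeR's quasi-likelihood test. In matPlag1KO 2c embryos Plag1 was counted in 9 of 11 libraries, against 1 of 11 in WT. All 8 oocyte markers listed for the check had counts in every group, and their summed level went from 4322 to 23810 CPM (counts scaled to library size) over the oocytes to 16.7 to 404 CPM over the 8c embryos. Of the 8 markers of 2c embryos, 5 were counted in each 2c group, with Zscan4f, Tcstv1 and Tcstv3 at 0. The 8 markers of 8c embryos summed to a median of 1995 CPM in WT 8c (range 1108 to 3703) and 806 CPM in matPlag1KO 8c (414 to 3139). Of 10 cumulus cell markers, 5 were counted in the oocytes of each genotype, at summed levels of 0 to 26.8 CPM in WT and 0 to 25.7 CPM in KO, and Ptx3 was at 0 in all groups. The cumulus sums reached 21.2 CPM in WT 2c and 56.5 CPM in matPlag1KO 2c embryos, and 7.89 and 6.50 CPM at 8c.

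The first question was how the clearance genes themselves fared between stages. On the spike-in scale, which keeps the total RNA of each oocyte or embryo in view, 7 of the 10 members fell between WT MII and 2c and 1 rose. Over all 16511 genes 51.3% fell and 14.1% rose. The median log2 fold change was -2.50 for the members and -1.46 for all genes. TMM scaling, which sets that overall loss aside, moved the median of all genes from -1.46 to -0.03, and the share of higher genes among all calls from 21.5% to 54.3%. On the TMM scale 4 members were still called lower (Btg4, Pabpn1l, Dcp1a and Dcp2) and 3 higher (Ythdf2, Zcchc11 and Xrn1), beside 23.1% and 27.5% of all genes. Between KO oocytes and matPlag1KO 2c embryos 5 members fell and 0 rose, against 50.3% and 13.5% of all genes, with medians of -1.79 for the members and -1.42 for all genes. With TMM the median of all genes there was 0.14, and the share of higher genes among the calls went from 21.2% to 60.1%. On that scale 7 members were called in the knockout arm, and the higher ones included Zfp36l1, Ythdf2 and Xrn1. The count of 0 that rose therefore holds for the spike-in scale only.

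**Figure D1:**
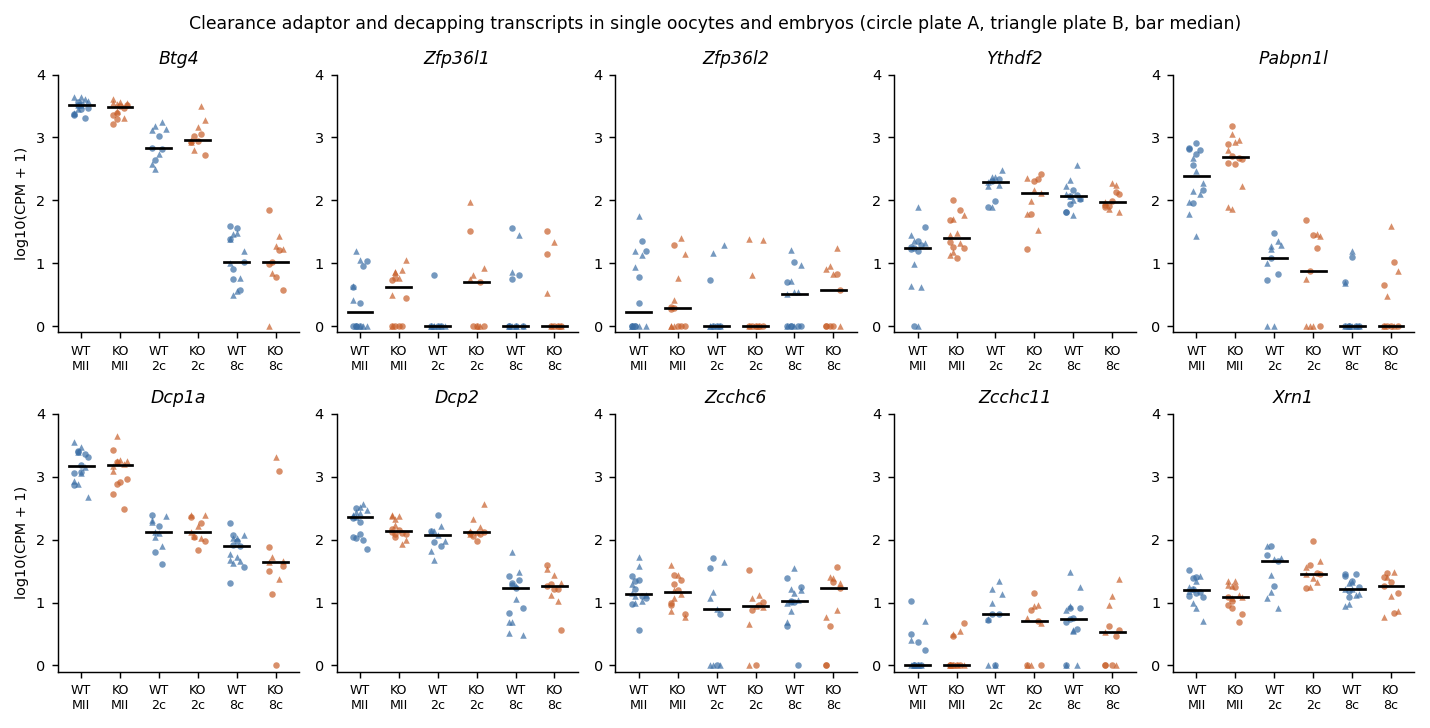
Level of each of the 10 genes in every kept library, as log10(CPM + 1), by group (WT blue, the knockout arm orange and marked KO), with circles for plate A, triangles for plate B and bars at the group medians. Btg4, Pabpn1l and Dcp1a step down from MII to 2c, Btg4 and Dcp2 step down again to 8c, Ythdf2 steps up, and 2 matPlag1KO 8c libraries stand far above the others for Dcp1a.

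Btg4 encodes the oocyte adaptor that ties CCR4-NOT to the translation machinery on maternal mRNA. In WT it went from 80.5, 141 and 649.5 counts per 1000 spike-in counts (lowest, median and highest library) at MII to 6.29, 13.8 and 40.1 at 2c and 0.0910, 0.360 and 1.33 at 8c. No WT library of one stage overlapped with any of the next. The log2 fold changes were -3.31 ± 0.41 from MII to 2c (edgeR adjusted p = 4.06e-11) and -4.99 ± 0.41 from 2c to 8c (edgeR adjusted p = 2.09e-18). Of all tested genes, 0.618% had a lower fold change from 2c to 8c, and all 8c libraries lay below all 2c libraries for 1.76% of genes in WT and 2.04% in the knockout arm. The knockout arm gave log2 changes of -2.96 ± 0.40 and -5.73 ± 0.49, again with no overlap between successive stages. From WT MII to 8c the log2 change came to -8.30 ± 0.46.

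Pabpn1l encodes the oocyte poly(A) binding protein that recruits BTG4 to maternal mRNA. WT oocytes held 0.830, 13.1 and 63.5 counts per 1000 spike-in counts (lowest, median, highest) and WT 2c embryos 0, 0.188 and 0.505, so the ranges did not overlap. The change of -6.43 ± 0.75 in WT (edgeR adjusted p = 6.74e-12) was the deepest of the 10 members, and 0.188% of all genes had a lower value. Between KO oocytes and matPlag1KO 2c embryos the change was -7.26 ± 0.77, with 0.00606% of genes lower. By 8c Pabpn1l was counted in 4 of 15 WT libraries (14 counts in all) and in 5 of 11 matPlag1KO libraries (22 counts). The further change from 2c to 8c did not pass the test on the spike-in scale in WT (-1.39 ± 0.75, edgeR adjusted p = 0.119), and on the TMM scale it was -2.28 (edgeR adjusted p = 0.00750). In WT the larger of the 2 step values was thus the first for Pabpn1l and the second for Btg4, a contrast that was not itself tested. Pabpn1l was already down to 24 counts over the 11 WT 2c libraries, which limits how far its second step could be read. Btg4 still held 1798 counts there.

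ZFP36L1 and ZFP36L2 bind AU-rich elements in 3′ ends and recruit the same deadenylase. Both transcripts were scarce here. Zfp36l1 was counted in 8 of 16 WT oocytes, 1 of 11 WT 2c embryos and 5 of 15 WT 8c embryos, with 49, 1 and 33 counts in all. Its log2 changes in WT were -3.74 ± 1.12 and then 3.29 ± 1.12, both called (edgeR adjusted p = 0.00257 and 0.0116), but the fall was not called on the TMM scale (-2.30, edgeR adjusted p = 0.115). The Zfp36l1 value in the knockout arm was -0.14 ± 0.84 from MII to 2c and was not called, whereas on the TMM scale the value was 1.83 and was called. Zfp36l2 was counted in 8 of 16 WT oocytes and 3 of 11 WT 2c embryos and fell by 2.87 (SE 0.96) on the log2 scale (edgeR adjusted p = 0.00672). On the TMM scale the Zfp36l2 change was -1.25 and was not called (edgeR adjusted p = 0.235). With medians between 0 and 4.06 CPM in every group, these 2 genes were read at the limit of the depth.

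Ythdf2 encodes the cytoplasmic reader that sends N6-methyladenosine-marked mRNA to decay, and it was the one member that rose from WT MII to 2c on the spike-in scale. WT oocytes held 0, 0.940 and 8.18 counts per 1000 spike-in counts (lowest, median, highest), WT 2c embryos 1.55, 3.48 and 6.23, and WT 8c embryos 1.60, 4.00 and 15.1. The ranges overlapped, and the change from MII to 2c was 1.34 ± 0.45 (edgeR adjusted p = 0.00796). The medians of the knockout arm were 1.84, 2.38 and 3.73, and the MII to 2c change was 0.01 ± 0.47 on the spike-in scale. On the TMM scale Ythdf2 was called higher at 2c in both genotypes, by 3.18 in WT and 1.89 in the knockout arm. The difference between the genotypes in this step, tested as an interaction, was -1.28 ± 0.51 and did not pass (edgeR adjusted p = 0.152). Plate A alone gave 0.51 for WT, which was not called (edgeR adjusted p = 0.550).

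Dcp1a encodes the activating partner of the decapping enzyme. It dropped from 14.2, 82.4 and 463 counts per 1000 spike-in counts (lowest, median, highest) in WT oocytes to 0.778, 2.83 and 4.91 in WT 2c embryos, without overlap. The change was -5.24 ± 0.67 (edgeR adjusted p = 1.29e-10), below that of all but 1.61% of genes, and it was -5.17 ± 0.67 in the knockout arm, likewise without overlap. WT 8c embryos held 2.55 at the median (range 0.480 to 7.89), and the 2c to 8c change of 0.06 ± 0.54 was not called. The Dcp1a row overlaps Cacna1d, a calcium channel gene on the opposite strand, over 11592 bp, and 1 Cacna1d exon (chr14:31304155-31304342, mm9) lies within the Dcp1a span, with 0 bp of exon shared. The sources do not say whether strand was used in counting. Cacna1d was also the gene most like Dcp1a across the 78 libraries (Pearson r = 0.904 of log2(CPM + 1)), and at 1211 CPM (WT) and 1504 CPM (KO) its oocyte medians were near those of Dcp1a, 1472 and 1514 CPM. How far reads from one gene were counted in the other was not tested.

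Dcp2, at chr18:44540154-44584623 (plus strand), encodes the catalytic subunit that cleaves the cap and fell in both steps. WT libraries held 5.14, 9.47 and 15.8 counts per 1000 spike-in counts at MII (lowest, median, highest), 0.928, 2.03 and 4.34 at 2c, and 0.0648, 0.555 and 2.86 at 8c. The MII and 2c ranges were apart and the 2c and 8c ranges overlapped. Dcp2 fell by 2.13 (SE 0.36) and then by 1.87 (SE 0.35) on the log2 scale (edgeR adjusted p = 4.18e-07 and 6.53e-06). In matPlag1KO embryos it fell by 1.64 (SE 0.36) from MII to 2c on the spike-in scale, whereas the TMM value was 0.01 and was not called, and it fell by 2.27 (SE 0.40) from 2c to 8c.

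XRN1 is the exonuclease that finishes off decapped RNA. Xrn1 held 0.121, 0.831 and 2.53 counts per 1000 spike-in counts (lowest, median, highest) in WT oocytes, 0.108, 0.836 and 1.60 in WT 2c embryos and 0.189, 0.616 and 1.19 in WT 8c embryos. These ranges overlap throughout. The MII to 2c change was -0.28 ± 0.38 in WT and -0.34 ± 0.40 in the knockout arm on the spike-in scale, neither called, but 1.28 and 1.44 on the TMM scale, both called, so its direction depends on the scale. From 2c to 8c the spike-in changes were -0.27 ± 0.39 and -0.33 ± 0.42. Of the members with counts in every WT library, Xrn1 had the smallest spike-in change from MII to 2c.

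Zcchc6 and Zcchc11 encode the terminal uridylyl transferases TUT7 and TUT4, which tag deadenylated mRNA. Zcchc6 was counted in 16 of 16 WT oocytes (148 counts) and 7 of 11 WT 2c embryos (31 counts), and fell by 1.59 (SE 0.55) on the log2 scale (edgeR adjusted p = 0.00860), though on the TMM scale the change was -0.17 and was not called. The knockout arm showed a fall of -2.53 (SE 0.59) and then a rise of 1.58 (SE 0.60) from 2c to 8c (edgeR adjusted p = 0.0246). That rise was not called without the 8c library in well F5 of plate A (1.23, edgeR adjusted p = 0.0921) or on the TMM scale (0.76, edgeR adjusted p = 0.266). Zcchc11 was the rarer of the pair, with 10 counts in 6 of 16 WT oocytes, 14 in 8 of 11 WT 2c embryos and 44 in 12 of 15 WT 8c embryos. From MII to 2c its change of 0.99 ± 0.71 was not called on the spike-in scale and was called at 2.43 on the TMM scale.

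**Figure D2:**
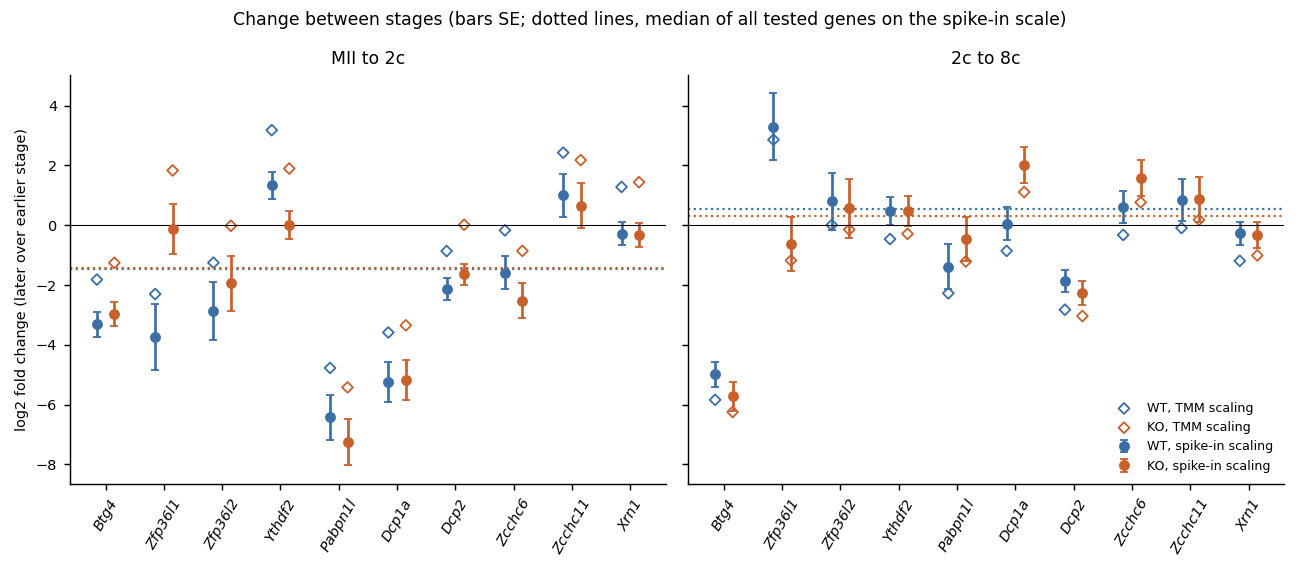
Log2 fold change of each gene from MII to 2c (left) and from 2c to 8c (right), in WT and in the knockout arm, with filled circles and SE bars for spike-in scaling and open diamonds for TMM scaling. Dotted lines mark the median of all tested genes on the spike-in scale only. From MII to 2c Pabpn1l and Dcp1a lie well under the dotted lines with spike-in scaling and under 0 with TMM. Xrn1 lies under 0 on the spike-in scale and above it on the TMM scale.

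Between 2c and 8c, 2 members fell in WT (Btg4 and Dcp2) and 1 rose (Zfp36l1), beside 16.2% and 31.9% of all genes. In the knockout arm the same 2 members fell and 2 rose (Dcp1a and Zcchc6), beside 19.5% and 29.1%. TMM moved the share of higher genes among all calls from 66.3% to 42.2% in WT and from 60% to 41.1% in the knockout arm. Over the whole interval from WT MII to 8c, 5 members fell (Btg4, Pabpn1l, Dcp1a, Dcp2 and Zfp36l2) and 2 rose (Ythdf2 by 1.80 ± 0.43 and Zcchc11 by 1.83 ± 0.64), beside 43.6% and 27.1% (38.3% of the calls higher, and 49.8% with TMM). The Zcchc11 rise lost its call without the WT 8c library in well E2 of plate B (1.35, edgeR adjusted p = 0.0535). With libraries of one group and well summed into one, Zfp36l2 from WT MII to 8c (-2.05, edgeR adjusted p = 0.0564) and Zcchc6 from matPlag1KO 2c to 8c (1.49, edgeR adjusted p = 0.0583) were no longer called.

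The other question was whether loss of maternal Plag1 altered the clearance genes at any stage. Across MII oocytes 0 of the 10 members were called in edgeR's quasi-likelihood test, beside 0.781% of all genes, and 2 members had an unadjusted p under 0.05 (Pabpn1l and Ythdf2), as did 10.2% of all genes. DESeq2 also called 0 members. Neither fit paired the WT and KO oocytes of a well, most of which deviated together. An alternative with the well as a block called 1 member, Pabpn1l, and is described with the processing. Spike-in scaling moved the median of all genes at MII from 0 to 0.30 and the share of higher genes among the calls from 39.5% to 70.8%, so the direction of small differences depends on the scale. Pabpn1l held 25.6, 240 and 825 CPM in WT oocytes (lowest, median, highest) and 72.3, 482 and 1529 CPM in KO oocytes, a log2 difference of 0.83 ± 0.40 (edgeR adjusted p = 0.469). Ythdf2 held 0, 16.7 and 78.0 CPM in WT and 11.1, 23.7 and 101 CPM in KO, a difference of 0.83 ± 0.34 (edgeR adjusted p = 0.318). For both genes the genotypes overlapped over most of their range. Btg4 was at 2058, 3271 and 4362 CPM in WT and 1616, 3037 and 4086 CPM in KO oocytes, which differed by -0.14 ± 0.28, and by 0.29 on the spike-in scale. Dcp1a differed by -0.14 ± 0.41.

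Oocyte values also differed by plate. The summed oocyte markers ran from 4408 to 6251 CPM in the 8 WT oocytes of plate B and from 5819 to 23810 CPM in the 8 of plate A, with KO oocytes at 11620 to 19550 CPM (plate A) and 4322 to 20780 CPM (plate B). Over the 30 oocytes 11 sums were at or under 6251 CPM and 19 at or above 11620 CPM, with none between. Pabpn1l followed the same split by plate in WT, at a median of 583 CPM on plate A (90.7 to 825) and 134 CPM on plate B (25.6 to 465), but not in KO oocytes, at 462 CPM on plate A (377.6 to 1529) and 620.4 CPM on plate B (72.3 to 1131). Its genotype difference was 0.42 ± 0.47 within plate A and 1.63 ± 0.54 within plate B, neither called (edgeR adjusted p = 0.793 and 0.0832). Dcp2 went the other way, at 114 CPM on plate A and 271 CPM on plate B in WT, and its genotype difference was -0.18 ± 0.38 within plate A, -0.64 ± 0.39 within plate B and -0.48 ± 0.28 over both, but 0.14 on the spike-in scale. The part of the marker sum in these values was not tested. On plate A the WT oocytes sat in well row A and the KO oocytes in well row B, and on plate B the reverse. Within a plate, genotype and well row therefore cannot be told apart.

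The most abundant members also varied to different degrees among single oocytes. Btg4 had the narrowest range relative to other genes, its highest WT oocyte standing 2.12-fold above the lowest in CPM, against 5.18-fold for Dcp2, 7.62-fold for Dcp1a and 32.2-fold for Pabpn1l. Relative to spike-in RNA the ranges were 3.07-fold for Dcp2, 8.07-fold for Btg4, 32.6-fold for Dcp1a and 76.5-fold for Pabpn1l. The Btg4 range rested on 1 oocyte (well A5 of plate A, at 649.5), and without it Btg4 spanned 2.60-fold, Dcp2 2.61-fold, Dcp1a 16.2-fold and Pabpn1l 76.5-fold. The KO oocyte highest in Btg4 per spike-in count, at 607.3, sat in the same well position, A5, of plate B. Over 8612 genes the deviations of these 2 oocytes from their group means correlated at r = 0.75. The part of well position in the ranges was not tested. Dcp2 CPM was lower in libraries with more gene counts, with Pearson r = -0.79 of log2 values over the 15 oocytes of plate A and -0.91 over the 15 of plate B. Every point of such a correlation shares its library total with its CPM, and it is given as a description only.

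**Figure D3:**
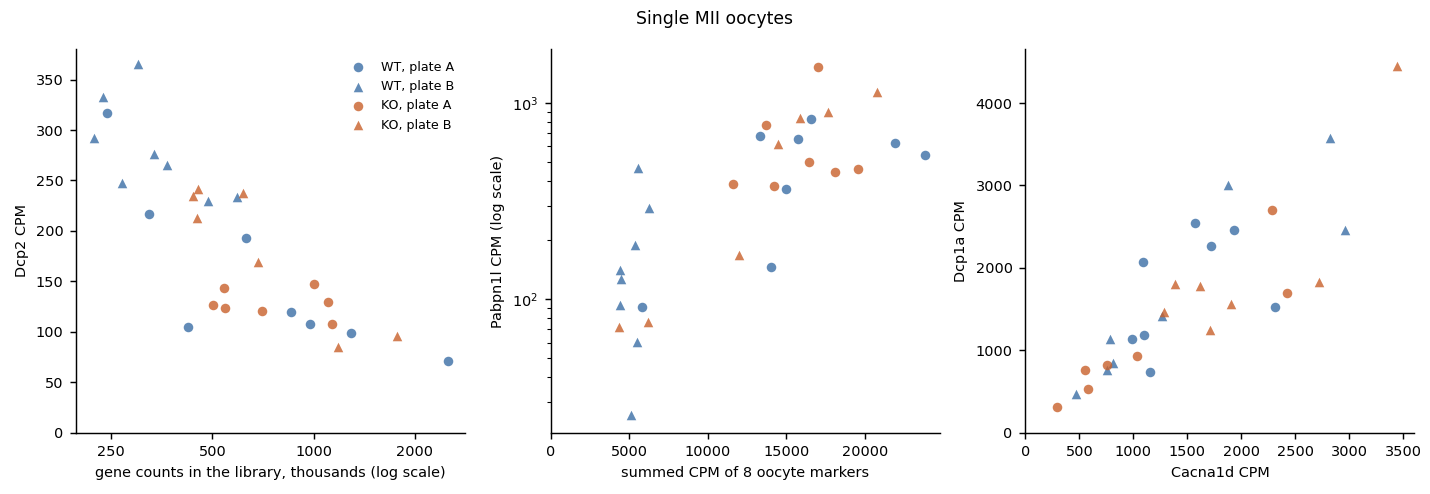
Single MII oocytes by genotype (WT blue, KO orange) and plate (A circle, B triangle), showing Dcp2 CPM against gene counts in the library (left), Pabpn1l CPM against the summed CPM of 8 oocyte markers (middle) and Dcp1a CPM against Cacna1d CPM (right). Dcp2 is lower in libraries with more counts, the WT oocytes of plate B sit at marker sums of 4408 to 6251 CPM, and Dcp1a and Cacna1d go up together.

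In 2c embryos 1 of 10 members was called, Zfp36l1, beside 4.92% of all genes. Its WT values were 0, 0 and 5.59 CPM (lowest, median, highest) and its matPlag1KO values 0, 4.06 and 91.8 CPM. A single count was found in WT, against 35 in 6 of 11 matPlag1KO libraries, and 26 of these 35 came from 1 library (well D2 of plate B). The pooled ratio was 29.9, with an exact 95% binomial interval of 5.03 to 1215 that covers counting error only. The fitted log2 difference was 4.17 ± 1.23 (edgeR adjusted p = 0.0327). Without that library it was 2.71 (edgeR adjusted p = 0.242), with libraries of a well summed 4.19 (edgeR adjusted p = 0.0824) and with spike-in scaling 3.86 (edgeR adjusted p = 0.0600), and none of these passed. Within plate A the difference was 1.90 (edgeR adjusted p = 0.762) and within plate B a fitted value of 5.96 (edgeR adjusted p = 0.0283). That value is no fold, since all 7 WT libraries of plate B held 0 counts, and 26 of the 30 matPlag1KO counts there came from the library in well D2.

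The remaining 9 members were not called at 2c. Btg4 was at 318, 678 and 1726 CPM in WT (lowest, median, highest) and 527, 908 and 3153 CPM in matPlag1KO embryos, a difference of 0.42 ± 0.33 (edgeR adjusted p = 0.495). Dcp2 differed by 0.40 ± 0.34 and Pabpn1l by 0.18 ± 0.71. Dcp1a was level between the groups, at medians of 130 and 131 CPM and a difference of 0.10 ± 0.50. Ythdf2 was at 77.7, 191 and 307 CPM in WT and 15.9, 132 and 263 CPM in matPlag1KO embryos, a difference of -0.45 ± 0.38 (edgeR adjusted p = 0.525). The median over the members was 0.14 and that over all genes 0.12, which spike-in scaling moved to 0.28 (46.7% of the calls higher, and 67% on that scale).

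**Figure D4:**
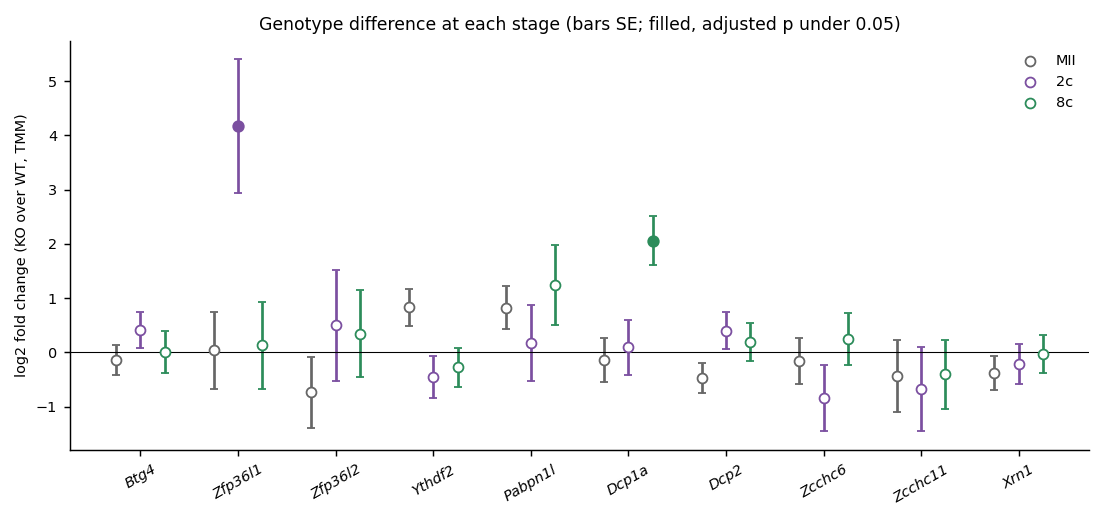
Log2 difference between the knockout arm and WT at MII, 2c and 8c for each gene, with SE bars and filled points for an adjusted p under 0.05. Zfp36l1 at 2c (4.17) and Dcp1a at 8c (2.06) are the filled points, and the other 28 lie between -0.84 and 1.24.

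At 8c Dcp1a was the 1 member called, beside 1.74% of all genes (69.7% of the calls higher, and 85.8% on the spike-in scale). WT 8c embryos were at 19.3, 77.5 and 184 CPM (lowest, median, highest) and matPlag1KO 8c embryos at 0, 43.3 and 2082 CPM. The fitted difference was 2.06 ± 0.46 (edgeR adjusted p = 0.00567), and 2.20 with spike-in scaling (edgeR adjusted p = 0.0223), although the matPlag1KO median was the lower of the pair. Only 2 libraries, at 2082 and 1213 CPM, exceeded the WT range, and the next highest was at 76.6 CPM. Without both of them the difference was -1.11 ± 0.37 (edgeR adjusted p = 0.0955), without the higher one 0.98 (edgeR adjusted p = 0.260) and without the other 1.56 (edgeR adjusted p = 0.0460). The called rise of Dcp1a from matPlag1KO 2c to 8c (2.01 ± 0.59, edgeR adjusted p = 0.00348) turned into a called fall of 1.34 without them (log2 value -1.34, edgeR adjusted p = 0.0201).

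The 2 libraries high in Dcp1a sat in the same well position, F5, of plates A and B. They held 636 and 712 Dcp1a counts but 27 and 9 Cacna1d counts (51.5 and 26.3 CPM), within the 16.8 to 116 CPM of Cacna1d in WT 8c embryos. Their summed oocyte markers were 166 and 158 CPM, within the 45.3 to 313 CPM of the group. Their Pabpn1l values, 9.53 and 38.0 CPM (5 and 13 counts), were the 2 highest of the group, with the next at 6.40 CPM. The highest WT 8c value of Pabpn1l was 14.9 CPM. The 2 libraries shared 10 genes at 100 CPM or more and over 10-fold above the 8c median, Dcp1a among them, of 18 and 21 such genes in each. Among 8c libraries, 5 of 12 pairs from the same well shared 3 or more such genes, compared with 4 of 313 pairs from different wells. The 2 sets of pairs are unlike. All 12 pairs from the same well were of 1 genotype and include the F5 pair. Those from different wells include pairs of WT with matPlag1KO, and the 4 were all between WT libraries. None of the 14 wells used at 8c held both genotypes. With the libraries of a well summed (8 WT and 6 matPlag1KO wells) Dcp1a was not called (1.83, edgeR adjusted p = 0.181).

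**Figure D5:**
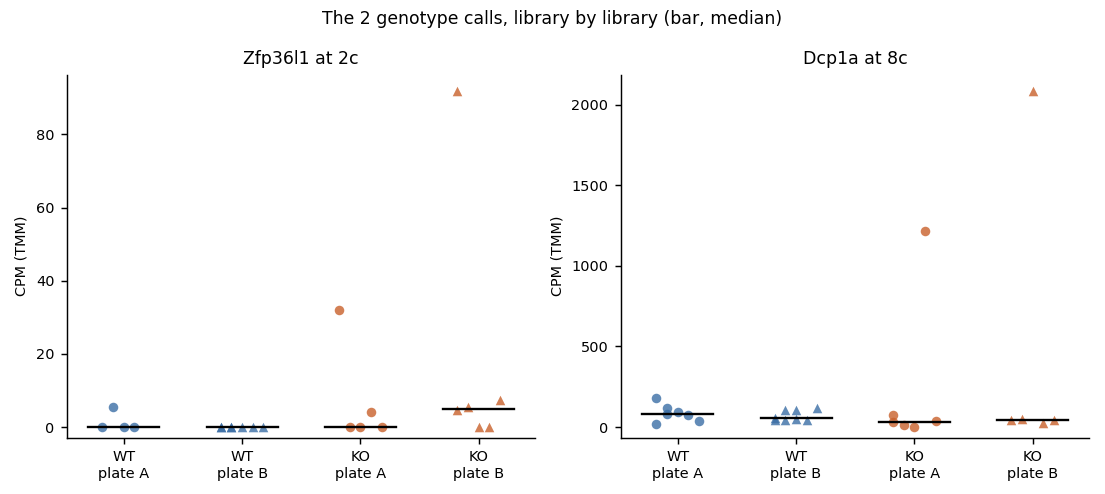
CPM in each library for the 2 genotype calls, Zfp36l1 at 2c (left) and Dcp1a at 8c (right), by genotype and plate, with bars at the medians. One library at 91.8 CPM carries most of the Zfp36l1 signal, and 2 libraries at 1213 and 2082 CPM stand above all others for Dcp1a.

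The other 9 members were not called at 8c. Btg4 stood at medians of 9.53 and 9.50 CPM in WT and matPlag1KO embryos, a difference of 0.01 ± 0.39. Dcp2 differed by 0.19 ± 0.36, Ythdf2 by -0.28 ± 0.35, Xrn1 by -0.03 ± 0.35 and Pabpn1l by 1.24 ± 0.74 (edgeR adjusted p = 0.460). Of the 22 Pabpn1l counts in matPlag1KO 8c embryos, 13 came from well F5 of plate B and 5 from well F5 of plate A. These are the libraries high in Dcp1a, and 6 of the 11 libraries held no Pabpn1l count. The lower marker sum in matPlag1KO 8c embryos stands beside these genotype differences, and its part in them was not tested. The genotype difference at 2c was also set against that at MII and at 8c as an interaction, and 0 of 10 members were called in either, beside 3.31% and 2.3% of all genes, and DESeq2 also called 0. The unadjusted p was under 0.05 for Zfp36l1 (adjusted p = 0.0917), Dcp2 (0.274) and Ythdf2 (0.152) against MII, and for Zfp36l1 (0.118) and Dcp1a (0.0925) against 8c, all in edgeR, beside 17.7% and 17.9% of all genes. These comparisons share their 2c libraries.

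Btg4, Pabpn1l and Dcp1a were set against all other genes by their level in CPM over the 78 libraries, among 8612 tested genes with a mean of at least 20 CPM in some group. The genes most like Btg4 were Gpatch2, Bcl2l10 and Obox5 (Pearson r of log2(CPM + 1) = 0.973, 0.966 and 0.957). Those most like Pabpn1l were Rgs2, H1foo and Rpl37rt (r = 0.919, 0.900 and 0.894), and those most like Dcp1a were Cacna1d, Med15 and Tbcd (r = 0.904, 0.870 and 0.868). The libraries form 3 stages, which all these genes share. Over the 30 oocytes alone r was 0.90 for Dcp1a and Cacna1d. Between members, over the 78 libraries, r was 0.859 for Btg4 and Dcp2, 0.760 for Btg4 and Pabpn1l and 0.802 for Pabpn1l and Dcp1a, and it was -0.497, -0.602 and -0.617 for Ythdf2 with Btg4, Pabpn1l and Dcp1a. Within the 30 oocytes r was -0.55 for Btg4 and Pabpn1l and -0.27 for Pabpn1l and Dcp1a.

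Other genes of mRNA decay, 68 of 70 listed being tested, gave the setting. On the spike-in scale 45 of them fell and 5 rose from WT MII to 2c, where 51.3% of all genes fell and 14.1% rose, and 28 rose and 8 fell from 2c to 8c, where 31.9% rose and 16.2% fell. The counts of the knockout arm were 50 lower and 1 higher, beside 50.3% and 13.5% of all genes, and then 28 higher and 14 lower, beside 29.1% and 19.5%. With TMM they were 17 lower and 20 higher and then 20 higher and 22 lower in WT, and 22 lower and 17 higher and then 24 higher and 21 lower in the knockout arm, so the direction of the list as a whole depends on the scale. On the spike-in scale, of 15 other decapping and 5′ to 3′ decay genes, 12 fell and 2 rose in WT from MII to 2c and 9 rose and 1 fell from 2c to 8c, where Dcp2 went on falling. Of 14 CCR4-NOT and other deadenylase genes, 9 fell from MII to 2c in WT and 11 in the knockout arm.

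Among these 68 genes edgeR called 0 by genotype at MII (4 at an unadjusted p under 0.05), 2 at 2c and 2 at 8c. Over all genes the shares called were 0.781% at MII (10.2% at an unadjusted p under 0.05), 4.92% at 2c and 1.74% at 8c. Lsm1, a subunit of the ring that binds deadenylated mRNA ahead of decapping, was at 22.3, 65.0 and 111 CPM in WT 8c embryos (lowest, median, highest) and 76.3, 212 and 240 CPM in matPlag1KO 8c embryos, a difference of 1.44 ± 0.24 (edgeR adjusted p = 0.000136). The groups overlapped only between 76.3 and 111 CPM, and the call held with the libraries of a well summed (1.42, edgeR adjusted p = 0.0265), though not within plate A alone (1.24, edgeR adjusted p = 0.352). Exosc9, a subunit of the exosome, was higher by 1.53 ± 0.40 at 8c (edgeR adjusted p = 0.0278), a call lost without the library in well E5 of plate A (1.41, edgeR adjusted p = 0.0602). At 2c Exosc7, another exosome subunit, differed by -1.25 ± 0.34 (edgeR adjusted p = 0.0185), and Btg1, a relative of Btg4, by -2.06 ± 0.64 (edgeR adjusted p = 0.0427). Without the WT library in well D5 of plate A the Btg1 difference was -1.81 (edgeR adjusted p = 0.102). With wells summed, Exosc9, Exosc7 and Btg1 were not called (edgeR adjusted p = 0.284, 0.0553 and 0.111), nor on the spike-in scale (0.0702, 0.0957 and 0.128). In the interaction of 2c against 8c, 4 of the 68 genes were called, beside 2.3% of all genes. These were Lsm1 (-1.50), Exosc9 (-2.43), Btg1 (-2.85) and the deadenylase subunit Cnot7 (1.85) (edgeR adjusted p = 0.0162, 0.0191, 0.0272 and 0.0258). On the spike-in scale 1 of the 68 genes was called.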

How the data were processed

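The authors picked single oocytes and embryos into lysis buffer with oligo(dT) primer, added ERCC spike-in RNA, made 2 pooled libraries (plates A and B) and sequenced transcript 5′ ends with molecular identifiers. Per the labels, reads were counted over genes with HOMER on mm9, and the study's methods name TopHat for alignment. The deposited table gives raw, unnormalized counts of 90 libraries over 24422 genes, beside 92 ERCC RNAs. Strand use in counting is not given in the sources used here. The 10 members and all gene lists were chosen with earlier results of these data known.

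Of the 90 libraries, 12 had a median CPM under 1 and were dropped. A gene entered the tests when 5 or more of the remaining 78 reached 1 CPM. The 6 groups were fitted together with the quasi-likelihood test of edgeR 4.0.16 (R 4.3.3) at a Benjamini-Hochberg adjusted p under 0.05 over 16511 genes. Genotype comparisons used TMM factors, and stage comparisons used the spike-in total as library size. CPM are counts scaled to the TMM-adjusted library size, and SEs were derived from the fold change and the F value. The steps were tested on simulated data with libraries drawn independently, so that test does not cover likeness between libraries of a well. Alternatives were the other scaling, DESeq2 1.42.0, all libraries, all genes, a plate term, the plates one at a time, edgeR's likelihood ratio test, only the compared groups and well as a block. Leaving out the highest library and summing wells were added after seeing the data. Members were named whatever their values, other decay genes only where called by genotype, and similar genes by Pearson r. Replicates are single oocytes or embryos whose donor females are not named, so p-values measure the spread between libraries. No library duplicated another of its group (lowest chi-square per degree of freedom 3.54). That check did not compare libraries of different groups, such as the WT and KO oocytes of a well, most of which deviated together. Promoter sequences are from RefSeq (GRCm38.p6) and were placed on mm9 by exact match with Python 3.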

Additional observations from a re-analysis of the deposited data

How the results depend on the processing

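Of the member and decay gene values under the alternatives, 937 stayed on their side of the threshold with no called value changing sign, 46 lost the call, 12 gained one and 6 reversed. On the TMM scale the reversed values were Xrn1 from WT MII to 2c (1.28), and Zfp36l1 (1.83), Dcp2 (0.014) and Xrn1 (1.44) from KO MII to 2c. Without the 2 libraries highest in Dcp1a, its genotype difference at 8c was -1.11 and its change from matPlag1KO 2c to 8c -1.34. The number of members called moved from 1 to 0 for genotype at 2c with spike-in scaling, within plate A or with wells summed, and from 1 to 0 at 8c within plate A or with wells summed. It moved from 8 to 5 for WT MII to 2c within plate A, from 3 to 5 for WT 2c to 8c with TMM, and from 4 to 2 for matPlag1KO 2c to 8c within plate A. With the well as a replicate block at MII, 1 member was called in place of 0, Pabpn1l (0.72, edgeR adjusted p = 0.000222). Of the 14 wells that held a WT and a KO oocyte, 12 pairs deviated together with a correlation over 0.1 and 2 did not, and 22 of 28 oocytes were closest to the one in their own well. Pairing was to be used only if all pairs passed that limit and was therefore not used, although most oocytes of a well did deviate together. Over all genes, calls by genotype went from 129 at MII to 82 (DESeq2), 46 (only the compared groups), 463 (plate B) and 792 (well block), from 812 at 2c to 285 (spike-in), 204 (wells summed), 0 (plate A) and 502 (plate B), and from 287 at 8c to 106, 27, 6 and 46. The interaction with MII went from 546 to 312 (spike-in), 239 (wells summed) and 39 (plate A), and that with 8c from 380 to 92, 36 and 0, to 170 (plate B) and to 654 (DESeq2). Stage calls moved over 1.5 times only within 1 plate. Wells summed and the runs without the highest libraries were chosen after seeing the data. Depth limits Zfp36l1, Zfp36l2, Zcchc11 and, after MII, Pabpn1l, which many libraries held at 0 counts. The cause of these moves was not tested.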
